A study of Mus musculus with 82 samples.

Results

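Transcripts of 8 genes that serve axons and their cytoskeleton were followed across the suprachiasmatic nucleus (SCN) of the mouse hypothalamus, the seat of the master circadian clock. The genes were Cntnap1, Lgi3, Vamp1, Thy1, Dscam, Nefl, Nefm and Nefh, which are 8 of the 27515 genes in the deposited count table. Several of them were selected on a measured value, the change of their level with the medial-lateral coordinate in these same libraries. Their values along that coordinate are therefore a description, with no test. Each of the 8 had 10 or more counts in 10 or more libraries and was among the 11469 genes tested.

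The samples were 82 hexagons of a grid, cut by laser from cresyl violet-stained SCN sections of C57BL/6 mice aged 8 weeks. No treatment or genotype separates them, and they differ in position. Each hexagon gave 1 library by Smart-seq2, which copies whole mRNAs from few cells, followed by fragmentation with the Tn5 transposase. The labels give a medial-lateral coordinate from 1100 to 1517, a dorsal-ventral one from 301 to 917 and an anterior-posterior one from 47 to 431, without a unit and without saying which end is which. Whether a high medial-lateral value is lateral could not be checked. Sections are numbered here from the lowest anterior-posterior coordinate, and sections 1 to 9 held 4, 6, 12, 14, 12, 14, 13, 6 and 1 hexagons. Hexagons are numbered within a section. The labels name no animal, so hexagons may share one, and p-values over hexagons are then too small. A hexagon holds several cells or parts of cells, so fewer cells of a type and less RNA per cell cannot be told apart.

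Neurofilaments are the intermediate filaments that fill large axons and set their calibre. They are built from a light, a medium and a heavy subunit, encoded by Nefl, Nefm and Nefh. Cntnap1 (Caspr) sits on the axon beside the nodes of Ranvier, where it anchors the myelin loops, and Vamp1 (synaptobrevin 1) is a vesicle SNARE that drives transmitter release. Thy1 is a glycoprotein anchored in the surface of mature neurons, Dscam is an adhesion receptor of the immunoglobulin superfamily that keeps neurites of like cells apart, and Lgi3 is a secreted protein of the LGI family, whose members bind ADAM receptors at axons and synapses. Most mRNA of a neuron lies in or near its cell body. Mbp encodes myelin basic protein of oligodendrocytes, and Nms encodes neuromedin S, a peptide that marks many SCN neurons.

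Total counts per library ran from 11905 to 2843366, with a median of 542267.5, and genes detected from 2549 to 13419. In 5 libraries the total was below the median divided by 3. The shallowest, hexagon 4 of section 4, had no count of Mbp or Nms. The summed level of 10 SCN neuron markers ran from 235 to 20550 CPM (counts scaled by library size) and was above 0 in every hexagon. A sum above 0 asks little and does not show that a hexagon lies within the SCN. Of the hexagons of full depth, 4 had under 10 CPM of Nms. All 4 lay at a medial-lateral coordinate of 1403 or higher, where 12 hexagons of full depth were found, and the next lowest Nms value among hexagons of full depth was 20.7 CPM. Values that rest on these 4 hexagons are given with and without them.

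Per length of transcript, Thy1 was the most abundant of the 8, with a median of 11.5 RPKM over the hexagons. Lgi3 followed with a median of 7.19 RPKM, Nefl with 6.29, Dscam with 4.20, Nefh with 3.26, Vamp1 with 2.30 and Cntnap1 with 2.20. Nefm was lowest, at a median of 0.268 RPKM. The spread over hexagons was wider than the steps between neighbours in this order: in CPM, the SD was 51.9 around a mean of 50.7 for Thy1 and 40.9 around a mean of 36.7 for Lgi3 (n = 82 each). Counts were low. Nefm had a median of 1 count per hexagon and no count in 39 of 82, which allows levels up to 1.16 CPM in the deepest and 101 CPM in the shallowest of those libraries. Cntnap1 and Nefh had no count in 11 hexagons each, and Lgi3, Vamp1 and Nefl in 12 each. Thy1 had none in 4 hexagons and Dscam in 1.

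Lgi3 and the genes of the light and medium subunits are on chromosome 14 of GRCm38, at 70530685 to 70538324 (plus strand) for Lgi3, 68083863 to 68089095 (plus) for Nefl and 68082590 to 68124846 (minus) for Nefm. In the GENCODE M21 annotation the last exon of 1 of the 2 Nefm transcripts overlaps the first exon of Nefl on the other strand. The overlap takes 1108 exonic bases, 32.8% of those of Nefl and 19.2% of those of Nefm. Reads from it cannot be assigned to either gene with certainty. The strand setting of the counting is not given either. Nefh stands alone on chromosome 11, at 4938754 to 4948064 (minus). Cntnap1 (chromosome 11, 101170523 to 101190724, plus) shares 233 exonic bases with Plekhh3 on the other strand, and Dscam (chromosome 16, 96590840 to 97170752, minus) shares 273 with a pair of noncoding genes. Vamp1 (chromosome 6, 125215551 to 125245964, plus) and Thy1 (chromosome 9, 44043384 to 44048579, plus) overlap no other annotated exon.

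Compared over 1 coding transcript each, the 3 neurofilament genes share no stretch of 50 bases on either strand. What sets the heavy subunit apart is a long run of repeats that encode lysine, serine and proline, the sites where the tail of the protein is phosphorylated. The coding sequence holds 51 such in-frame codon triplets in Nefh, 4 in Nefm and 0 in Nefl. A window of 120 bases from exon 4 of 4 of Nefh, at chr11:4940938-4941057 of GRCm38 on the minus strand, shows 7 of them in capitals. It is given because Nefh is the member below whose level did not rise along the medial-lateral coordinate.
Nefh repeat: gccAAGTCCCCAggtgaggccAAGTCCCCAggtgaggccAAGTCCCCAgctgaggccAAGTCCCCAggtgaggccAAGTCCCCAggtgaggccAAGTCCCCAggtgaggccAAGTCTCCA

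Along the medial-lateral coordinate, 7 of the 8 genes had higher levels at higher coordinates and Nefh did not. Slopes are log2 changes per 100 coordinate units from a fit over all hexagons with section and dorsal-ventral coordinate in the model, and each is given with its standard error. The slope was 0.78 ± 0.18 for Cntnap1, 0.70 ± 0.17 for Lgi3, 0.68 ± 0.16 for Vamp1, 0.57 ± 0.13 for Thy1 and 0.55 ± 0.12 for Dscam. For the neurofilament genes it was 0.64 ± 0.20 for Nefl, 0.64 ± 0.28 for Nefm and 0.04 ± 0.18 for Nefh. The first 5 were past an adjusted p of 0.05 and the 3 neurofilament genes were not, so Nefl was the member just outside that limit and Dscam had the smallest slope inside it. Over all genes 1.4% passed, 0.837% upward, and the median slope was -0.01. As this contrast chose the members, nothing is read from their count. The description labels open with a letter, taken here as a library set, and within sections 4 to 7 that set moved with the coordinate. Set D held the 2 hexagons at 1512 and 1516 of section 4, set E those at 1398 and 1442 of section 5, and set F those from 1285 up in section 6. In section 7 set F held 3 hexagons at 1171 to 1178 and set G the other 10. With library set as a further factor the slopes were 0.57 ± 0.24 for Cntnap1, 0.59 ± 0.21 for Lgi3, 0.70 ± 0.22 for Vamp1, 0.59 ± 0.16 for Thy1, 0.61 ± 0.15 for Dscam, 0.54 ± 0.24 for Nefl, 0.64 ± 0.36 for Nefm and -0.05 ± 0.25 for Nefh.

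**Figure D1:**
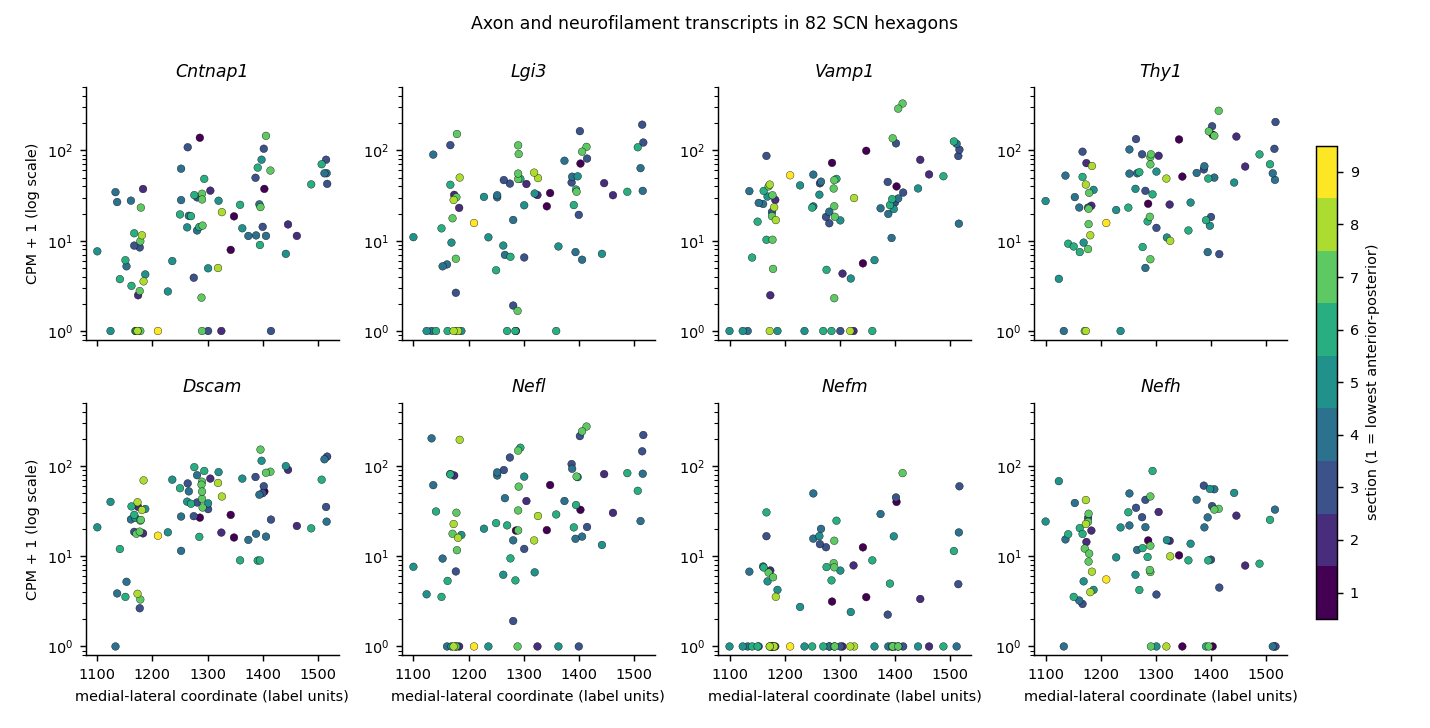
Level of each of the 8 genes (CPM + 1, log scale) against the medial-lateral coordinate (label units), 1 point per hexagon, coloured by section. The points of Cntnap1, Lgi3, Vamp1, Thy1, Dscam and Nefl sit higher at high coordinates, many of Nefm lie at a count of 0, and those of Nefh show no such drift (slope 0.04 ± 0.18).

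The hexagons were also put in 3 groups of nearly equal size by coordinate, from 1100 to 1228 (27 hexagons), 1236 to 1342 (28) and 1348 to 1517 (27). Cntnap1, the paranodal protein, had a median of 3.24 CPM in the low group (range 0 to 36.4), 17.8 in the middle group (0 to 137) and 24.3 in the high group (0 to 144). Lgi3 had medians of 9.95 CPM (0 to 151), 26.5 (0 to 113) and 42.4 (0 to 192) in the same order. The groups overlapped for both genes, and hexagons without a count were found in every group.

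For Vamp1 the medians were 19.8 CPM in the low group (0 to 86.1), 17.4 in the middle (0 to 71.8) and 38.9 in the high group (0 to 330), so the low and middle groups were alike and the difference lay at the high end. Thy1 had medians of 21.6 CPM (0 to 95.9), 35.6 (0 to 133) and 55.3 (6.11 to 274) from low to high. Dscam had 17.7 CPM (0 to 68.2), 43.5 (10.5 to 95.8) and 48.9 (7.94 to 150). No hexagon of the high group lacked a count of Thy1 or Dscam, against 3 and 1 of the low group.

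The light subunit Nefl had a median of 10.7 CPM in the low group (0 to 201, the highest being 6 counts in the shallowest library), 19.7 in the middle (0 to 158) and 52.0 in the high group (0 to 272). Nefm was too sparse for its median to be read: it was 0 CPM (0 to 29.6), 5.16 (0 to 48.6) and 1.25 (0 to 82.2), with 15, 11 and 13 hexagons at 0. Nefh was level, with medians of 13.4 CPM (0 to 66.8), 12.9 (0 to 87.0) and 12.7 (0 to 59.4). Its zero counts were not spread evenly, with 1 hexagon in the low group, 3 in the middle and 7 in the high group.

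The make-up of the neurofilament transcripts was described over the same 3 groups. It largely follows from the medial-lateral slopes, which were used to choose several members, and was not tested. Among hexagons with 10 or more counts of the 3 genes together, the median share of Nefl was 50% in the low group (19 hexagons), 58.0% in the middle (24) and 73.0% in the high group (23). The median share of Nefh was 38.5%, 24.9% and 18.2% in that order. In single hexagons the share of Nefl ran from 0 to 95.9% in the low group and from 20% to 100% in the high group, so the groups overlapped widely. A hexagon could reach 10 counts through Nefl alone. Counts here are not corrected for length, and Nefl and Nefm share the exonic overlap described above.

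Within single sections the slope was positive in all 8 sections with 4 or more hexagons for Dscam and Lgi3, in 7 for Thy1 and Nefl, in 6 for Cntnap1, Vamp1 and Nefm, and in 3 for Nefh. The order of the sections differed between genes. Section 7 had the steepest slopes of the sections with 6 or more hexagons for 6 genes, with 2.22 ± 0.77 for Nefm, 2.09 ± 0.55 for Nefl, 1.88 ± 0.36 for Thy1, 1.76 ± 0.47 for Cntnap1, 1.63 ± 0.42 for Vamp1 and 1.17 ± 0.35 for Dscam. Section 8, with 6 hexagons, went the other way for Nefl (-1.25 ± 1.14), for Nefm on 4 counts (-1.96 ± 2.01) and for Thy1 (-0.32 ± 0.72). Its Nefl slope rests on hexagon 1, which had 194 CPM at a coordinate of 1184, while the others of that section had at most 26.9 CPM.

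**Figure D2:**
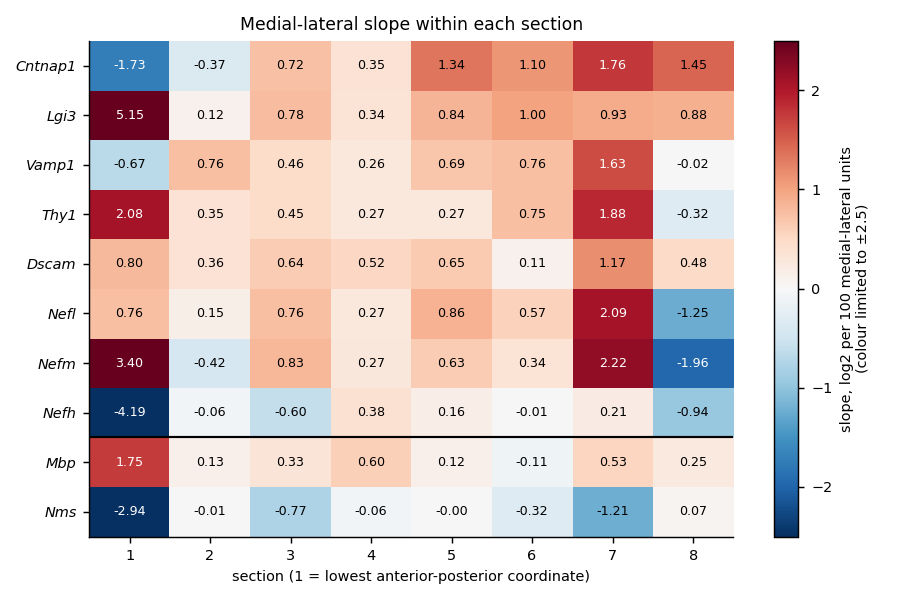
Medial-lateral slope (log2 per 100 units) of the 8 genes and of Mbp and Nms within each of sections 1 to 8, printed in each cell and coloured red for positive and blue for negative. Section 7 shows the steepest positive slopes for Nefl and Nefm among the larger sections, and Nefh is positive in 3 of 8; values in section 1 rest on 4 hexagons.

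Single hexagons of section 7 differed by gene. The 3 hexagons at 1396 to 1414 (numbers 12, 13 and 11) had 330, 289 and 135 CPM of Vamp1, against 1.31 to 45.8 CPM in the other 10, at 1171 to 1291. Thy1 was at 274, 145 and 162 CPM in those 3 and at most 89.7 CPM in the other 10. Neither gene overlapped between the 3 hexagons and the rest of the section. These 3 lie at the high end of the coordinate that chose several members, so such a gap is partly fixed by the choice. The share of all genes with such a gap was not counted. All 3 were of library set G, as were 7 of the other 10.

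Dscam was likewise apart in section 7, at 85.3, 83.0 and 150 CPM against 2.31 to 65.8 CPM, with the same limits. Nefl, at 272, 241 and 75.2 CPM against 0 to 147 CPM, overlapped through hexagon 11. Cntnap1 overlapped too, at 58.9, 144 and 22.6 CPM against 0 to 32.1 CPM. Lgi3 had its highest value of the section, 151 CPM, in hexagon 5 at 1179, and was at 109, 95.9 and 33.9 CPM in the 3 hexagons against 0 to 151 CPM in the other 10. Nefm was at 82.2 CPM in hexagon 12 and at 0 in hexagons 13 and 11, so its slope there rests on 1 library. Nefh, at 32.5, 31.8 and 0 CPM against 0 to 44.9 CPM, was not set apart. The same 3 hexagons had 3.05, 31.8 and 33.9 CPM of Nms, below all of the other 10 (91.0 to 508), and 3077, 2195 and 1463 CPM of Mbp (492 to 2730 in the other 10).

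In section 3 the 3 hexagons of highest coordinate, 1415 to 1517, did not act as a group. Hexagons 3 and 2 had 219 and 144 CPM of Nefl, 206 and 103 of Thy1, and 121 and 192 of Lgi3. Hexagon 10 beside them had 20.1 CPM of Nefl and 6.11 of Thy1, with the highest Mbp level of any library, 10068 CPM. The other 9 hexagons of section 3 ranged from 0 to 213 CPM of Nefl. Nefh was at 0, 0 and 3.49 CPM in hexagons 3, 2 and 10, against 1.96 to 59.4 CPM in the other 9. Hexagons 3 and 2 were thus high in Nefl without a count of Nefh, while hexagon 10 was low in both.

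Whether the slopes differ along the other axes was tested as a product of coordinates, which the choice of members did not use. No gene changed its medial-lateral slope along the anterior-posterior axis by edgeR's quasi-likelihood test (0 of 11469, 0%, with 683 at an unadjusted p under 0.05 and 18 called by DESeq2). All 8 members had a positive product term, as had 4927 of the 11469 genes, and the largest was that of Cntnap1, 0.72 ± 0.21 (adjusted p = 0.609, the same edgeR test). Along the dorsal-ventral axis 2 genes were called, 0.0174% of those tested, and neither was a member. With section 7 left out, the anterior-posterior terms of Nefl and Dscam turned negative, at -0.06 and -0.12.

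On the dorsal-ventral axis 7 of the 8 slopes were negative, against 48.5% of all genes, and none passed the edgeR test, where 0.811% of all genes did. Lgi3 came closest, at -0.35 ± 0.11 (adjusted p = 0.118 by edgeR), with medians of 40.7, 18.9 and 16.7 CPM from the low to the high dorsal-ventral group. Nefl had -0.36 ± 0.14 (adjusted p = 0.328) and medians of 39.9, 18.3 and 18.3 CPM. Nefm had -0.57 ± 0.20 (adjusted p = 0.247) and Nefh -0.24 ± 0.12 (adjusted p = 0.609). Without section 8, both Lgi3 (-0.41, adjusted p = 0.0273) and Nefl (-0.51, adjusted p = 0.0270) passed the same test.

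On the anterior-posterior axis the unit is the section, with counts summed over 8 sections. None of the 8 members passed, and 0.244% of all genes did. Cntnap1 had the most negative slope, -0.57 ± 0.20 (adjusted p = 0.182 by edgeR). Its section medians ran from 27.1 CPM in section 1 to 3.27 CPM in section 8, with 12.2, 21.2, 25.1, 5.56, 18.1 and 13.7 CPM in sections 2 to 7. Thy1 had -0.32 ± 0.14 (adjusted p = 0.282), and Nms ran the other way at 0.51 ± 0.11 (adjusted p = 0.0555). The lone hexagon of section 9, left out of this fit, had no count of Cntnap1, Nefl or Nefm and 52.1 CPM of Vamp1.

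**Figure D3:**
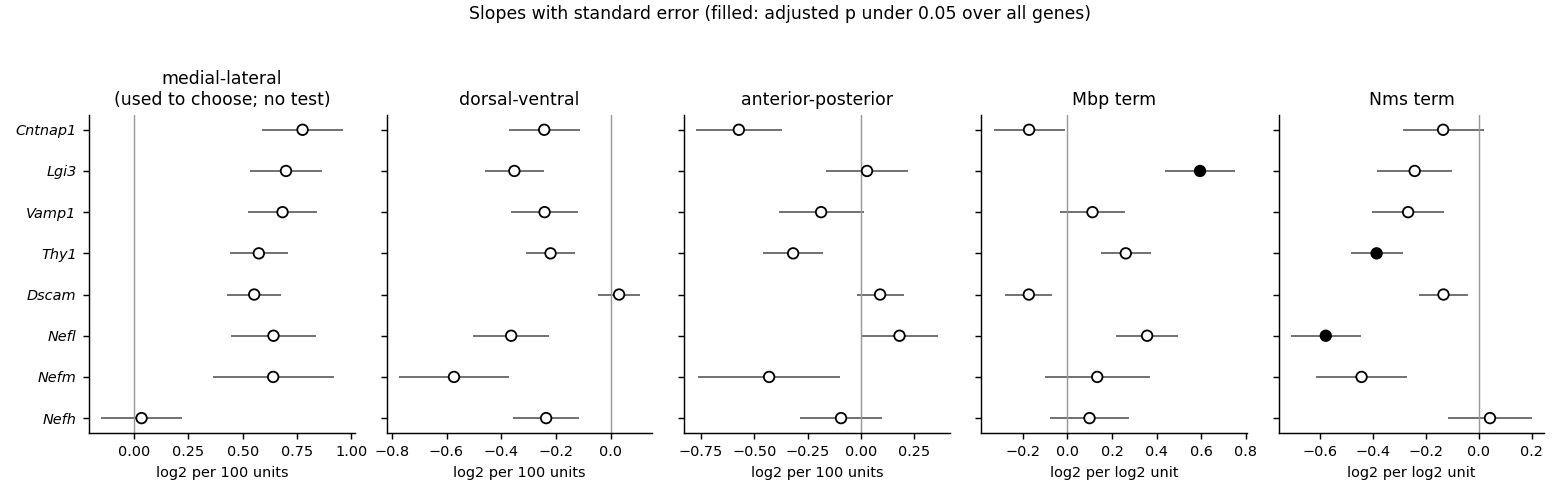
Slope of each member on 5 terms with its standard error as a bar: medial-lateral, dorsal-ventral and anterior-posterior coordinate (log2 per 100 units), and the Mbp and Nms terms (log2 per log2 unit). Filled points passed an adjusted p of 0.05 over all genes, which were Lgi3 with Mbp and Thy1 and Nefl with Nms; the medial-lateral panel carries no test.

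The members were next related to Nms and Mbp of the same hexagon, with section and both in-plane coordinates in the model, so that these terms are not the slope that chose the members. Nefl and Thy1 fell with Nms. The Nms term, a log2 change per log2 unit of Nms, was -0.58 ± 0.13 for Nefl (adjusted p = 0.00448) and -0.39 ± 0.10 for Thy1 (adjusted p = 0.0143, both by edgeR's quasi-likelihood test). Over all genes 0.358% were called in that direction and 2.19% in either, and the median term was 0.04. Of the other 6 members, Nefm had -0.44 ± 0.17 (adjusted p = 0.190), Vamp1 -0.27 ± 0.14 (0.376), Lgi3 -0.24 ± 0.14 (0.470), and Cntnap1 and Dscam -0.13 each. Nefh had 0.04 ± 0.16 (adjusted p = 0.959).

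The shallowest library, with no Nms, had 201 CPM of Nefl from 6 counts. Without the 5 shallow libraries the Nefl term was -0.47 (adjusted p = 0.1998 by edgeR), and without section 4, which holds the shallowest, -0.47 (adjusted p = 0.268). It was also lost without section 7 (-0.51, adjusted p = 0.0585) and with genes detected as a covariate (-0.51, adjusted p = 0.158). For Thy1 the term was -0.46 without the shallow libraries (adjusted p = 0.0134), and the call was lost without section 7 (-0.31, adjusted p = 0.191), without section 4 (-0.43, adjusted p = 0.0557) and with genes detected as a covariate (-0.38, adjusted p = 0.0893). Without the 4 hexagons under 10 CPM of Nms, both calls held, at -0.78 for Nefl (adjusted p = 0.00400) and -0.46 for Thy1 (adjusted p = 0.0477). Nefm then had 0.11 in place of -0.44 (adjusted p = 0.934).

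Lgi3 rose with Mbp. Its Mbp term was 0.59 ± 0.16 (adjusted p = 0.0273 by edgeR), in a test that called 1.28% of all genes upward and 1.35% in either direction, with a median term of 0.03. Nefl had 0.36 ± 0.14 (adjusted p = 0.283) and Thy1 0.26 ± 0.11 (adjusted p = 0.387). Cntnap1, whose protein meets myelin at the paranode, had -0.17 ± 0.16 (adjusted p = 0.885), and Dscam -0.17 ± 0.11 (adjusted p = 0.691). The call for Lgi3 was lost without the 5 shallow libraries, at a like size (0.59, adjusted p = 0.103), without the in-plane coordinates in the model (0.45, adjusted p = 0.181) and without section 3, 4, 6 or 7 (0.54 to 0.65, adjusted p up to 0.196).

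**Figure D4:**
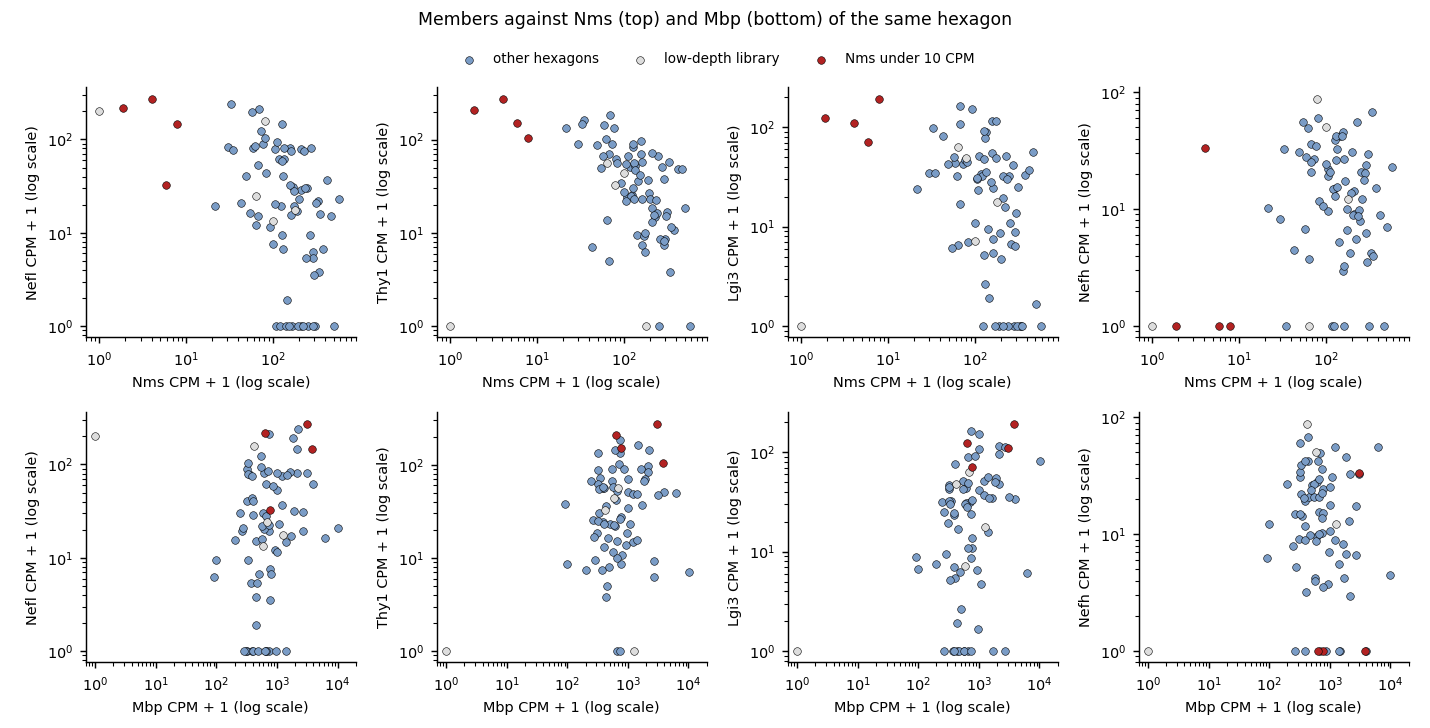
Nefl, Thy1, Lgi3 and Nefh against Nms (top) and Mbp (bottom) of the same hexagon, all as CPM + 1 on log axes, 1 point per hexagon. Red points are the 4 hexagons of full depth under 10 CPM of Nms, which are high in Thy1 (103 to 274 CPM) and at 0 for Nefh in 3 of 4; grey points are the 5 shallow libraries, of which 1 has no count of Nms or Mbp.

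In plain correlations of section-centred log2(CPM + 1) over 81 hexagons, Nefl and Nms had Pearson's r = -0.469 and Spearman's rho = -0.434, and r = -0.451 without the 2 hexagons farthest in Nms. Thy1 and Nms had r = -0.245 and rho = -0.420, and r = -0.471 without the 2 farthest. Lgi3 and Mbp had r = 0.355 and rho = 0.429, and r = 0.346 without the 2 farthest in Mbp. Nefh had rho = 0.042 with Nms and -0.0727 with Mbp. All values of a hexagon share its library and its depth, so these are descriptions.

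The 4 hexagons low in Nms were at high levels of most members. All 4 lay at 1403 or higher on the medial-lateral coordinate, whose slope was used to choose several members. High levels there are thus partly fixed by the choice, and the medians over all 82 do not account for coordinate. Thy1 was at 206, 274, 148 and 103 CPM in hexagon 3 of section 3, 12 of section 7, 4 of section 1 and 2 of section 3, against a median of 35.1 CPM over all 82. Lgi3 was at 121, 109, 70.6 and 192 CPM in the same order, with a median of 29.3 CPM over all. Nefl was at 219, 272, 31.6 and 144 CPM (median over all 22.0). Nefh was at 0 in 3 of them and at 32.5 CPM in hexagon 12 of section 7.

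Other markers moved in these hexagons as well. Their SCN neuron markers summed to 650, 268, 562 and 633 CPM, against a median of 2770 CPM over all hexagons. Mbp was above its median of 660 CPM in 3 of them (3077, 767 and 3859 CPM) and at 633 CPM in hexagon 3 of section 3. Slc17a6, the vesicular glutamate transporter that marks glutamatergic neurons around the SCN, had 14.2, 18.3, 0 and 78.0 CPM there and no count in 53 of all 82 hexagons. Tissue beside the SCN in these hexagons was not tested as a cause.

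With Nms and Mbp both in the model, the medial-lateral slope of Cntnap1 was 0.77 ± 0.21 and that of Dscam 0.52 ± 0.13, against 0.78 and 0.55 without them. Lgi3 then had 0.54 ± 0.17 and Vamp1 0.48 ± 0.18. The slope of Thy1 was 0.30 ± 0.13, of Nefl 0.28 ± 0.19 and of Nefm 0.22 ± 0.32, against 0.57, 0.64 and 0.64 without the 2 terms. The Nms term alone gave 0.35 for Thy1, 0.39 for Nefl and 0.25 for Nefm, while the Mbp term alone gave 0.53, 0.60 and 0.62. Leaving out the 4 hexagons low in Nms instead gave slopes of 0.78 for Cntnap1, 0.64 for Lgi3, 0.64 for Vamp1, 0.50 for Thy1, 0.54 for Dscam, 0.55 for Nefl, 0.22 for Nefm and 0.09 for Nefh. Nefm was thus the member whose slope rested most on those 4.

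**Figure D5:**
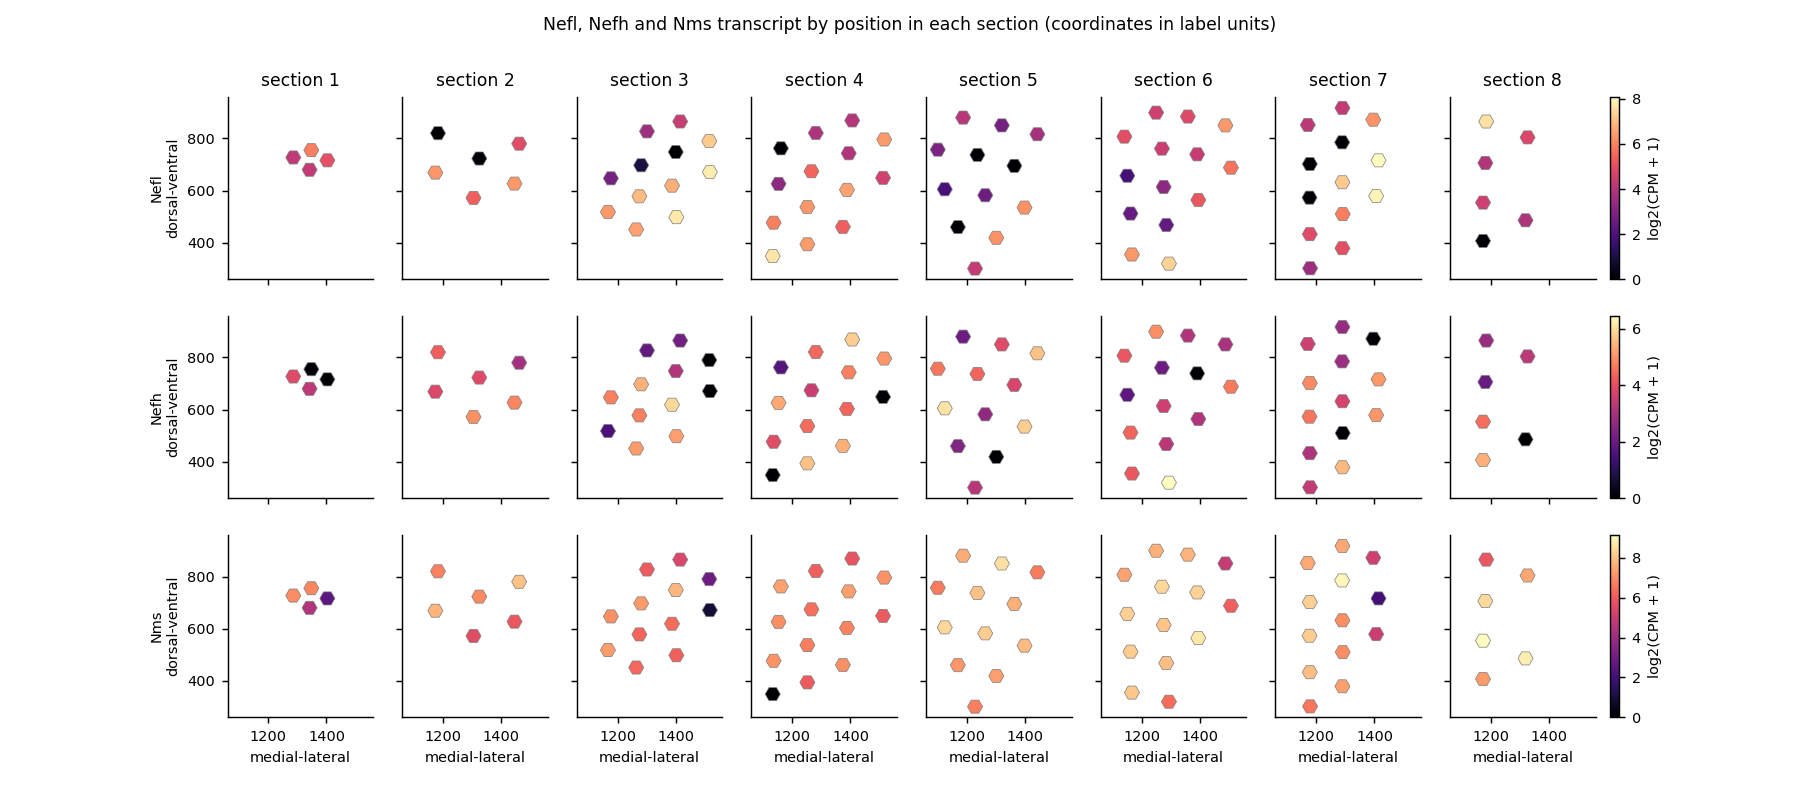
Hexagons of sections 1 to 8 at their medial-lateral (x) and dorsal-ventral (y) coordinates in label units, coloured by log2(CPM + 1) of Nefl, Nefh and Nms, from dark at 0 to pale at each gene's highest value. In sections 3 and 7 2 of the 3 hexagons of highest medial-lateral coordinate are pale for Nefl (144 to 272 CPM). Nms is dark in those of section 3 and in 1 of section 7, and near mid-scale in the other (31.8 CPM). Nefh is dark in those of section 3 and not in those of section 7.

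Among themselves the members varied together, Nefh excepted. Over 81 hexagons, the 21 pairs without Nefh had correlations of section-centred log2(CPM + 1) from 0.157 to 0.505, with a median of 0.366. The 7 pairs with Nefh ran from -0.112 to 0.104. With both in-plane coordinates taken out, the 21 pairs ranged from 0.00483 to 0.337 (median 0.249) and the 7 from -0.110 to 0.204. Without section 7 the 21 pairs ranged from 0.115 to 0.535. As members were picked for a shared slope, a shared sign is partly fixed by the choice.

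The genes most like the mean of the 8 members were ranked among 8137 genes with a mean of 20 CPM or more, by the correlation of section-centred values over 81 hexagons. They were Tspan7 (0.760), a tetraspanin of neurons, Ndrg4 (0.729), Ckmt1 (0.728), the mitochondrial creatine kinase, Rab3a (0.713), a GTPase of synaptic vesicles, Cplx1 (0.710), a complexin that clamps vesicle fusion, Napb (0.699), which helps to take apart spent SNARE complexes, Ndufv2 (0.698), a subunit of respiratory complex I, and Otub1 (0.687), a deubiquitinase. The least like were Malat1 (-0.696), a nuclear noncoding RNA, Hnrnpa2b1 (-0.660), an RNA-binding protein, Pdcd4 (-0.618) and Flrt3 (-0.612). The mean of the members had r = 0.256 with log2 total counts and 0.179 with log2 genes detected. With genes detected taken out, Tspan7 stood at 0.750 and Malat1 at -0.739. Several members were chosen for their medial-lateral slope, which section-centred values keep. The likeness of genes that rise or fall along that coordinate is thus partly fixed by the choice. With both in-plane coordinates taken out, the genes named as most like ranged from 0.580 (Ndufv2) to 0.686 (Rab3a). Those named as least like then ranged from -0.646 (Hnrnpa2b1) to -0.448 (Flrt3).

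Wider gene lists gave context for each role. These lists, like the members, were drawn up with earlier results of these data known. Over all genes tested, 5544 of 11469 (48.3%) had a positive medial-lateral slope. Of 16 genes of vesicle fusion tested, 11 had a positive medial-lateral slope and 4 rose by edgeR's test, with a list median of 0.07: Cplx2 (0.46 ± 0.09, adjusted p = 0.000901), Syt1 (0.39 ± 0.08, adjusted p = 0.00451), Cplx1 (0.55 ± 0.13, adjusted p = 0.0115) and Nsf (0.20 ± 0.05, adjusted p = 0.0117). Complexins and the calcium sensor Syt1 time vesicle fusion, and Nsf is the ATPase that recycles SNAREs. Syt1 and Cplx2 also fell along the dorsal-ventral coordinate, by 0.36 and 0.26 (adjusted p = 4.52e-05 and 0.00595). Cplx1 and Nsf fell with Nms, at -0.42 (adjusted p = 0.00228) and -0.13 (adjusted p = 0.0319). Of the 16 genes from the lists named for Nms calls, 11 lost the call without the shallow libraries, 11 without section 4 and 11 with genes detected as a covariate. Nsf lost it without the shallow libraries and without section 4 (adjusted p = 0.0745 and 0.105), and Cplx1 with genes detected as a covariate and without section 7 (adjusted p = 0.0604 and 0.134, all by edgeR).

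Of 17 axonal transport motors, 13 had a positive medial-lateral slope and 2 rose, the kinesin heavy chains Kif5b (0.15 ± 0.04, adjusted p = 0.0353) and Kif5c (0.20 ± 0.06, adjusted p = 0.0429 by edgeR). Their list median was 0.05. Kif5a rose with Mbp instead (0.18 ± 0.05, adjusted p = 0.0179), as did the dynein heavy chain Dync1h1 (0.12 ± 0.03, adjusted p = 0.0311). Without the shallow libraries the Mbp term of Kif5a was 0.11 (adjusted p = 0.572).

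Of 21 genes of the node, paranode and initial segment, 17 had a positive medial-lateral slope, and 1 rose, the sodium channel beta subunit Scn2b (0.21 ± 0.05, adjusted p = 0.0108), with a list median of 0.07. Cntn2, a contactin of the juxtaparanode, rose with Mbp (0.61 ± 0.14, adjusted p = 0.00444), which did not hold without section 3 or 4 (adjusted p = 0.121 and 0.221). The sodium channel Scn1a fell with Nms (-0.44 ± 0.10, adjusted p = 0.00327), which did not hold without the shallow libraries (-0.37, adjusted p = 0.106). Of 8 LGI proteins and ADAM receptors, 5 had a positive slope, none was called in any of the 7 tests across genes, and their median slope was 0.03.

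Of 20 genes of the neurofilament and axonal cytoskeleton list, 14 had a positive medial-lateral slope, none rose and 1 fell, the microtubule-associated protein Map1b (-0.12 ± 0.03, adjusted p = 0.0446 by edgeR), with a median of 0.06. Map1b rose with Nms (0.12 ± 0.02, adjusted p = 0.000566), which did not hold without the shallow libraries (0.05, adjusted p = 0.208). Of 27 immunoglobulin-family and guidance receptors 21 had a positive slope and 1 rose, the contactin Cntn5 (1.02 ± 0.27, adjusted p = 0.0322). Of 13 tested markers of fast-firing projection neurons 10 had a positive slope and 2 rose, Ndrg4 (0.15 ± 0.04, adjusted p = 0.0473) and the synuclein Sncg (1.32 ± 0.37, adjusted p = 0.0483). Across these lists and the cell type lists below, 17 named genes other than members were called along the medial-lateral coordinate. With library set as a further factor, 1 of the 17 stayed called and the count over all genes went to 13 in place of 160. Without the 4 hexagons low in Nms 5 of the 17 stayed called, and with Nms and Mbp in the model none did.

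Markers of other cells moved along the same coordinate. None of 10 SCN neuron markers had a positive medial-lateral slope and 3 fell, the transcription factors Zfhx3 (-0.27 ± 0.05, adjusted p = 0.00199) and Six3 (-0.31 ± 0.08, adjusted p = 0.0144) and the signalling regulator Rgs16 (-0.39 ± 0.10, adjusted p = 0.0173). All 12 oligodendrocyte and myelin genes had a positive slope and none was called; their summed level ran from 0 to 8672 CPM in the low group, 200.2 to 13067 in the middle and 365 to 24036 in the high group. All 8 astrocyte markers had a positive slope and 1 rose, S100b (0.27 ± 0.07, adjusted p = 0.0416). Of 3 meningeal genes tested 1 had a positive slope, while Slc6a13 (-2.01 ± 0.32, adjusted p = 0.000142) and Dcn (-1.86 ± 0.41, adjusted p = 0.00621) fell. Of 6 markers of glutamatergic neurons around the SCN, only Slc17a6 had enough counts to be tested: its medial-lateral slope of 0.75 was not called, and it fell with Nms (-1.38 ± 0.29, adjusted p = 0.00178), which did not hold without the shallow libraries (-0.85, adjusted p = 0.292). The part of these cell types in the slopes of the members was not tested beyond the Nms and Mbp terms above.

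The RefSeq promoter table held 2 of the 8 members, Vamp1 and Dscam, each as a window of 300 bases around the start of the gene. They are shown because both genes were high in the same hexagons of section 7. Both strands were searched for 5 motifs: the E-box CACGTG, held by 7.15% of the 32851 mouse promoters in the table, the D-box TTATGTAA (0.94%), the core of the ROR element AGGTCA (16.26%), the cAMP response element half-site TGACG (20.81%) and the GC box GGGCGG (35.66%). Vamp1 (GRCm38.p6, chr6:125215331-125215630, plus strand) holds 1 GC box, in capitals, and Dscam (chr16:97170686-97170985, minus strand) none of the 5.
Vamp1 promoter: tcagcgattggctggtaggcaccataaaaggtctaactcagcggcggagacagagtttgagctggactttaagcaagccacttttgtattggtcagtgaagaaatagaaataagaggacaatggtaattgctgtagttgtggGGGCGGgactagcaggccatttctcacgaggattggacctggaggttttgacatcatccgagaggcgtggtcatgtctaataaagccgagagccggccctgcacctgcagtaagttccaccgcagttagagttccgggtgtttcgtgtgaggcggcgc
Dscam promoter: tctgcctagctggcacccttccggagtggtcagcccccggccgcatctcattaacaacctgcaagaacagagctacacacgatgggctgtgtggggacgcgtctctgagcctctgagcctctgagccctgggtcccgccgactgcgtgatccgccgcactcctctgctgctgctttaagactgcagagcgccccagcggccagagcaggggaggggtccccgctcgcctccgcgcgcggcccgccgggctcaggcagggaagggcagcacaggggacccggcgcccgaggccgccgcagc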

How the data were processed

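Each library was 1 hexagon. Per the submitters' processing notes, reads were handled with bcl2fastq 2 and STAR on GRCm38, while the sources used here give neither the counting step nor its strand setting. The authors deposited raw counts per gene and RPKM per gene. The deposited RPKM equal counts over gene length and total counts to within a relative 5.3e-15, and 0.0316% of counts lie in genes absent from the RPKM table. Symbols were joined from that table, with 455 from the reference annotation and 5 IDs left without one.

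Slopes came from edgeR 4.0.16 in R 4.3.3 (TMM scaling, quasi-likelihood test, Benjamini-Hochberg adjustment over 11469 genes that reached 10 counts in at least 10 libraries), with section as a factor and both in-plane coordinates per 100 units. The anterior-posterior fit used summed counts of 8 sections. The Mbp and Nms terms added log2(CPM + 1) of both genes (11467 genes tested). A standard error is the slope over the root of its F. The procedure was run on simulated counts, drawn independently, for the medial-lateral, Mbp and anterior-posterior terms. Such counts hold no shared animal or library set, so that run cannot address either. Alternatives were DESeq2 1.42.0, library-size scaling, no filter or a stricter one, 5 shallow libraries left out, library set or genes detected as covariates, each section left out, and grid position as a block.

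The members and lists were chosen with earlier results of these data known. Named genes are the 8 members, Mbp and Nms, up to 4 called genes per list and result, smallest p first, and the 8 most and 4 least like genes. The 4 hexagons low in Nms were set apart after their values were seen. A limit for a count of 0 is 3 counts over the TMM-scaled total and covers counting error only.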

Additional observations from a re-analysis of the deposited data

Results flagged for a closer look

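In 30 groups of 4 to 10 hexagons of 1 section, 3 values stood apart from the rest of their section by Dixon's criterion. For normal values chance meets it in about 1 of 20 groups, and skewed CPM with counts of 0 are not normal. The groups came from sections 1, 2 and 8, and the larger sections were not screened. Nefl was at 193.641 CPM in hexagon 1 of section 8, where the next highest of 6 hexagons had 26.9 CPM. Nefm in the same hexagon was at 2.5479 CPM, from 4 counts, with no count in the other 5. Mbp was at 3976.65 CPM in hexagon 2 of section 1, where the next highest of 4 hexagons had 767 CPM.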

How the results depend on the processing

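Counts of called genes depended on the settings. Along the medial-lateral coordinate 160 genes became 353 with DESeq2, 912 with no filter on low counts, 13 with library set as a factor, 50 without the 4 hexagons low in Nms and 1 with Mbp and Nms as covariates. The dorsal-ventral count of 93 became 154 with DESeq2 and 799 with no filter. The anterior-posterior count of 28 became 331 over hexagons, 448 with DESeq2, 106 with no filter, 1 with section 9 added and 63 without the 4 hexagons. For Mbp, 155 became 392 with no filter and 83 without the shallow libraries. For Nms, 251 became 449 with DESeq2, 545 with no filter, 109 without the shallow libraries, 43 with genes detected as a covariate and 447 without the in-plane coordinates. The product with the anterior-posterior coordinate gave 18 with DESeq2 and 357 with no filter in place of 0, and that with the dorsal-ventral coordinate 1 with DESeq2, 242 with no filter, 0 with the stricter filter and 0 without the shallow libraries in place of 2. Leaving out 1 section at a time gave 31 (section 7) to 190 (section 8) genes for the medial-lateral coordinate, 44 (section 5) to 139 (section 8) for the dorsal-ventral one, 1 (section 7) to 79 (section 8) for the anterior-posterior one, 65 (section 4) to 156 for Mbp, 73 (section 4) to 271 for Nms, and 0 to 2 for the dorsal-ventral product. The cause of these shifts was not tested.

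The medial-lateral slope of 7 members stayed positive in every alternative run that fitted them, and that of Nefh ran from -0.0468 to 0.0895. As several members were chosen for this slope, its sign is partly fixed by the choice. Its size changed, down to 0.22 for Nefm with Mbp and Nms as covariates. Members' values on the other terms changed sign 29 times, none of them called. With section 9 added, the anterior-posterior slopes of Lgi3, Dscam and Nefl were -0.098, -0.058 and -0.045, and over hexagons that of Vamp1 was 0.12. The Mbp term of Nefm was -0.024 without the shallow libraries, and that of Nefh -0.017 without the in-plane coordinates. The Nms term of Nefh was -0.012 with genes detected, -0.011 with log2(CPM + 10) and -0.052 without the 4 hexagons, where that of Nefm was 0.11 and the anterior-posterior product of Nefh -0.14. With 1 section left out at a time, values that crossed 0 ran from -0.024 to 0.0996 for Dscam on the dorsal-ventral axis, from -0.19 to 0.17 for Lgi3 and from -0.33 to 0.015 for Nefh on the anterior-posterior axis. They ran from -0.092 to 0.26 for Nefm and from -0.24 to 0.24 for Nefh with Mbp, and from -0.11 to 0.21 for Nefh and from -0.22 to 0.038 for Cntnap1 with Nms. In the anterior-posterior product they ran from -0.0080 to 0.196 for Nefh, from -0.12 to 0.19 for Dscam and from -0.059 to 0.46 for Nefl, and in the dorsal-ventral product from -0.040 to 0.088 for Vamp1. The causes were not tested. The titles give each hexagon 1 of 16 grid positions that recur across sections and mark a place, with no word on a shared animal. Of 192 pairs of hexagons with the same position in different sections, 5 had a correlation of their deviations from the section means above 0.1. Of 2620 pairs of other positions 20 did, a smaller share. Both medians were near 0 (0.0211 for the same position and -0.0019 for others), so the position was not taken as a pairing. With grid position as a replicate block in place of the in-plane coordinates, 75 genes were called for Mbp, 113 for Nms, 261 over hexagons for the anterior-posterior axis and 0 for its product. In that block fit the Nms terms were -0.60 for Nefl (adjusted p = 0.0270) and -0.40 for Thy1 (adjusted p = 0.0618), the Mbp term of Lgi3 was 0.46 (adjusted p = 0.320, all by edgeR), the Nms term of Nefh was -0.049, and the anterior-posterior slopes of Lgi3, Vamp1 and Nefl were -0.056, 0.11 and -0.033. The block was added after seeing the data, and it was not fitted for the in-plane slopes, which it absorbs. Under the stricter filter Cntnap1, Nefm and Nefh had too few counts to be fitted, as had Nefm without section 3 or 7.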
